A study of Mus musculus with 12 samples.

Results

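The comparison described here sets embryoid bodies of a knockout line of mouse embryonic stem (ES) cells, labelled 1343KO, against wild-type (WT) embryoid bodies after 16 days of differentiation. It uses 4 of the 12 libraries analysed, namely the columns for WT at day 16 (replicates 1 and 2) and for the line labelled WT+1343KO-a14 at day 16 (replicates 1 and 2). Both lines also have 2 libraries each as undifferentiated cells at day 0 and as embryoid bodies at day 8, which served to estimate the spread and to place the day 16 difference in time. Cells of both lines were kept with serum and leukaemia inhibitory factor (LIF) before day 0, and then grown as floating aggregates on low-attachment plates without LIF. Poly(A) RNA was sequenced, and each value is the authors' FPKM, a fragment count scaled by transcript length and sequencing depth. The labels do not say what the numeral in the knockout's name or the prefix WT+ stands for, and the knockout is represented by 1 clone. Whether the replicates are separate cultures is not stated, and p-values cover only library-to-library variation, possibly technical.

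ES cells hold a network of transcription factors around Oct4 (gene Pou5f1), Sox2 and Nanog that keeps them able to form all tissues of the embryo. When LIF is withdrawn and the cells aggregate, the network is normally shut off and the aggregate, an embryoid body, forms derivatives of endoderm, mesoderm and ectoderm, often with an outer layer of yolk sac-like endoderm. The series title places the small nucleolar RNA SNORA73 at this exit from pluripotency. Small nucleolar RNAs of the H/ACA class guide the enzyme dyskerin to uridines of ribosomal RNA, and members of this family also act in ribosomal RNA processing; they are mostly released from introns of host genes such as Snhg3.

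The 2 mouse genes of the RNA named in the title lie on chromosome 4 of GRCm38, on the minus strand, and their transcripts from GENCODE M21 are shown because the host transcript that contains them was at or near 0 in 1343KO, with the terminal ACA box in capitals.
Snora73a: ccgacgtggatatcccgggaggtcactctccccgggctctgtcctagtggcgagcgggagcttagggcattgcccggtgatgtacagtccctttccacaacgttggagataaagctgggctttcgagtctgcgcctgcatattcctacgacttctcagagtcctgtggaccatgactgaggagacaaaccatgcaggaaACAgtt
Snora73b: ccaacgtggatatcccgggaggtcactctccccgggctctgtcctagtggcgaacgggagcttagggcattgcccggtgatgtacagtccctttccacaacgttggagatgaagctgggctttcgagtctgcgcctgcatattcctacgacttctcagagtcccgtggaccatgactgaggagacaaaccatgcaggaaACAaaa
Snora73a spans chr4:132352775-132352979 and Snora73b chr4:132352322-132352526. Each is 205 bases long, and they are identical at 198 positions (96.6%), so reads from one copy are hard to assign against the other. Snora73b lies wholly in an intron of all 5 annotated Snhg3 transcripts, and Snora73a in an intron of 4 of 5, with an exon of the remaining one overlapping it. Both also fall in an intron of 1 of 8 Rcc1 transcripts, since Rcc1 (chr4:132331919-132353605) and Snhg3 (chr4:132348014-132353686) overlap on the same strand.

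The host transcript was compared between the lines, but the labels do not name it as the target, so it cannot verify them. Snhg3 (ENSMUSG00000085241) had 16.7 and 8.31 FPKM in the 2 WT libraries of day 16 and was listed at 0 in both 1343KO libraries, a log2 difference of -3.68 ± 0.49 (standard error; limma, adjusted p = 0.000183). At day 0 the knockout libraries had 1.57 and 0 FPKM against 61.1 and 47.0 in WT, and at day 8 they were at 0 or a negligible value. The snoRNAs themselves could not be compared, because poly(A) selection largely misses them. Both were listed at 0 in all 4 libraries of day 16, and Snora73a had a value above 0 in 1 WT library of day 0 (11.2 FPKM) and 1 1343KO library of day 8 (10.7 FPKM). Rcc1 (ENSMUSG00000028896), which encodes the nucleotide exchange factor of Ran and shares the locus, had 11 and 11.6 FPKM in WT and 33.7 and 33.0 FPKM in 1343KO at day 16. The knockout libraries stood above the WT libraries (log2 difference 1.48 ± 0.15, limma adjusted p = 3.23e-05). In WT the level of Rcc1 had come down from 82.7 ± 5.02 (SD, n = 2) FPKM at day 0, and in 1343KO from 46.3 ± 3.99 (SD, n = 2), so the order of the lines was opposite at the 2 days. How fragments were divided between the overlapping Rcc1 and Snhg3 models is an estimate, and both values are uncertain to that degree. The next gene, Trnau1ap (ENSMUSG00000028898, chr4:132311763-132329538), which takes part in selenoprotein synthesis, had 9.21 and 12.2 FPKM in WT and 16.1 and 12 in 1343KO, with overlapping libraries and no call (0.36 ± 0.24, limma adjusted p = 0.245).

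Over all libraries, depth as estimated from the steps of low FPKM values ran from about 4818000 to 7945000 fragments, and the 4 libraries of day 16 from 6040000 to 6941000. Mitochondrial transcripts took 8.32% to 9.07% of the summed FPKM in those 4 libraries, in both lines alike. Replicates correlated across genes at 0.972 in WT and 0.971 in 1343KO on the log2(FPKM + 1) scale, and WT with 1343KO at 0.825 to 0.830. Day 16 knockout libraries correlated with day 0 WT libraries at 0.927 to 0.933, whereas day 16 WT libraries did so at 0.764 to 0.771; these are correlations across 16289 genes, which are not independent replicates.

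Of the 16289 genes tested, 8570 (52.6%) passed the threshold of an adjusted p under 0.05 at day 16, 4639 (28.5%) with a higher and 3931 (24.1%) with a lower level in 1343KO. Changes of at least 2-fold on the log2(FPKM + 1) scale among these numbered 2088 (12.8%) upward and 2287 (14%) downward. Every count of genes below is read against these shares. FPKM are shares of a total, and the total itself changed its makeup: under a median-of-ratios scaling 3758 genes were higher and 4759 lower, which puts 44.1% of calls on the higher side in place of 54.1%, and moves the median of all genes from 0.07 to -0.05. Small changes near 0 therefore depend on the scaling, whereas the changes of several log2 units described below do not. An exact permutation test of 1 gene over 2 against 2 libraries has a smallest possible p of 0.333; the calls use the variance that limma shares across genes and all 6 groups.

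**Figure D1:**
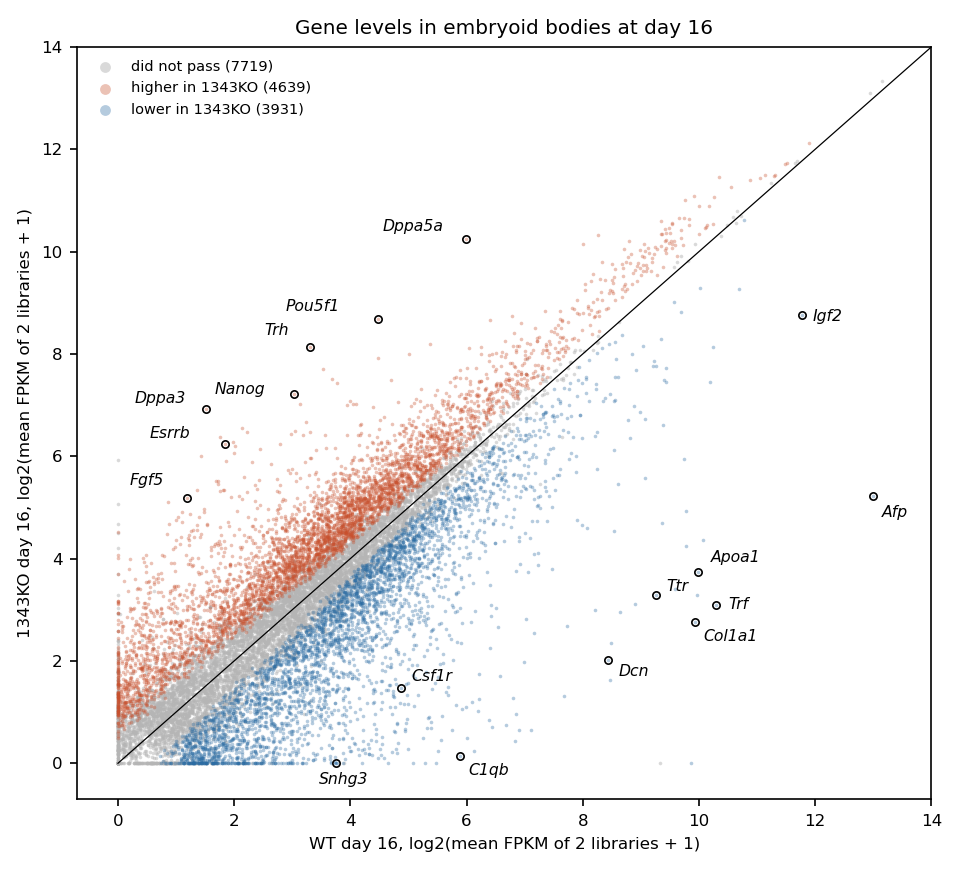
Mean level of each of the 16289 tested genes at day 16, as log2(mean FPKM of 2 libraries + 1), in WT (x axis) and 1343KO (y axis). The 4639 genes called higher are orange, the 3931 called lower are blue and the others grey; the labelled genes of the pluripotency network lie above the diagonal, and Afp, Col1a1 and other lineage genes lie far below it.

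The core of the pluripotency network was retained in 1343KO. Pou5f1 had 23.6 and 18.6 FPKM in WT and 419 and 397 FPKM in 1343KO at day 16. The knockout libraries were thus far above the WT libraries, by a ratio of means of 19.3 (log2 difference 4.22 ± 0.09, limma adjusted p = 5.68e-09). Nanog, a homeobox factor of the same network, had 6.83 and 7.45 FPKM against 139 and 158 FPKM (4.20 ± 0.08, limma adjusted p = 3.43e-09). Sox2 had 11 and 12.8 FPKM against 172 and 191 FPKM, a 15.3-fold ratio. All 14 genes of the core list were higher (median log2 difference 3.53, where the median of all genes was 0.07). The summed FPKM of the 14 genes was 275 to 285 in WT and 1963 to 1996 in 1343KO, and 3043 to 3060 in WT at day 0. The 1343KO level at day 16 thus lay between the WT levels of day 16 and day 0.

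The Nanog promoter is shown because it carries side by side the motifs of the factors whose genes were high here. It is given as the 250 bases before the second of its RefSeq starts (GRCm38.p6, chr6:122707315-122707564, plus strand). Capitals mark the octamer core bound by Oct4 (ATGCAAA on either strand) and an adjacent SOX motif (CATTGT on either strand).
Nanog: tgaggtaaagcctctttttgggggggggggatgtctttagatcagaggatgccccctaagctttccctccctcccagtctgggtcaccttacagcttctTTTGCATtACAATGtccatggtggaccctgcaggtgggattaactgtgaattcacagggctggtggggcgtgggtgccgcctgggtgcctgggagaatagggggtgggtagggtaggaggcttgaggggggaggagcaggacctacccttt
The octamer core begins 151 bases and the SOX motif 143 bases before the start. Over windows of 250 bases before to 50 after a start, the octamer core was present in 5 of 35 promoters (14.3%) of the 26 core and naive genes that matched, in 3.51% of the 14231 promoters of tested genes and in 4.63% of all 32851. The SOX motif was present in 14.3% of the same 35 promoters, in 7.58% of those of tested genes and in 12.6% of all. Other letters reached the same share. GTTAAT, part of the HNF1 motif, was in 14.3% of the 35, in 4.60% of those of tested genes and in 7.10% of all. For TATAAA the shares were 14.3%, 7.65% and 13.6%. CACGTG (2.86% against 9.78% of those of tested genes) and CCAAT (37.1% against 37.8%) were not more frequent. These shares do not single out the octamer core or the SOX motif. Nanog has 2 overlapping windows among the 35, which hold the same octamer, SOX and GTTAAT sites, so each site is counted 2 times. Such a match describes letters in a window, not binding.

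The largest rise among named genes was that of Dppa3 (Stella), a maternal factor that protects against DNA demethylation, with 0.833 and 2.87 FPKM in WT and 122 and 119 FPKM in 1343KO (5.51 ± 0.33, limma adjusted p = 1.25e-06). Both were also above the day 0 WT level of 9.94 ± 1.87 (SD, n = 2) FPKM. Trh, the precursor of thyrotropin-releasing hormone, had 8.87 and 8.88 FPKM against 291 and 269 FPKM (4.83 ± 0.09), and it too exceeded its day 0 WT mean of 119 FPKM. The rest of the 15 most raised genes were Dppa4, Lefty2, Lefty1, Esrrb, Lncenc1, Dnmt3l, Dppa5a, Zscan10, Pou5f1, Nanog, Zfp42, Utf1 and Platr14, with log2 differences of 4.62 down to 4.13. Dppa5a reached 1222 and 1210 FPKM in 1343KO against 54.8 and 70.6 in WT. No library of one line overlapped the other for any of these 15 genes, which is a condition of how they were chosen; of all tested genes 40.6% were higher and 34.7% lower without overlap.

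The naive network, a set of factors that marks naive ES cells kept with LIF, did not move as one. Of its 23 genes, 16 were higher, 2 were lower and 5 did not pass. Esrrb, an orphan nuclear receptor of the naive state, had 2.51 and 2.64 FPKM in WT and 74.8 and 73.5 FPKM in 1343KO. Klf2 (7.08 and 9.13 against 86.7 and 82.6 FPKM) and Zfp42 (Rex1; 3.29 and 2.77 against 72.1 and 72.2 FPKM) were high in both knockout libraries as well. Nr5a2, a nuclear receptor that binds the Pou5f1 gene, rose from 1.73 and 1.71 to 14.3 and 12.5 FPKM. Klf4, by contrast, had 13.1 and 10.0 FPKM in WT and 12.3 and 11.9 FPKM in 1343KO, with overlapping libraries (0.08 ± 0.15, limma adjusted p = 0.696), although its day 0 means were 76.0 FPKM in WT and 96.9 FPKM in 1343KO. The 2 genes that fell belong to the LIF response. Stat3, the transcription factor activated by LIF, had 19.4 and 21 FPKM in WT against 6 and 7.41 FPKM (-1.46 ± 0.15), and Socs3, its feedback inhibitor, had 10.8 and 10.1 against 5.61 and 6.50 FPKM (-0.70 ± 0.12). The LIF co-receptor Il6st did not pass (-0.24 ± 0.25, limma adjusted p = 0.446).

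Formative genes, which normally come up as cells leave the naive state and resemble the early epiblast, were high at the same time. Of 17 genes 14 were higher, none was lower and 3 did not pass (median 2.49). Fgf5, the classical marker of primed epiblast, had 1.03 and 1.55 FPKM in WT and 36.9 and 34.1 FPKM in 1343KO (4 ± 0.22, limma adjusted p = 7.62e-07). Otx2, which directs the enhancer switch out of the naive state, had 3.32 and 5.59 against 66.6 and 72.6 FPKM. Both were low at day 0, with means of 0.991 FPKM for Fgf5 and 4.49 FPKM for Otx2 in 1343KO itself. The day 16 knockout libraries combined high Esrrb and Zfp42 with levels of Fgf5 and Otx2 that undifferentiated cells of the same line did not have. Dnmt3b, a de novo DNA methyltransferase, rose from 7.57 and 8.08 to 124 and 134 FPKM, and Zic2 from 5.03 and 6.61 to 34.2 and 43.2 FPKM. Foxd3, Pou3f1, Sox3 and Etv5 also passed upward, with log2 differences from 2.23 to 3.59. Bulk RNA does not tell whether naive and formative genes were expressed by the same cells.

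**Figure D2:**
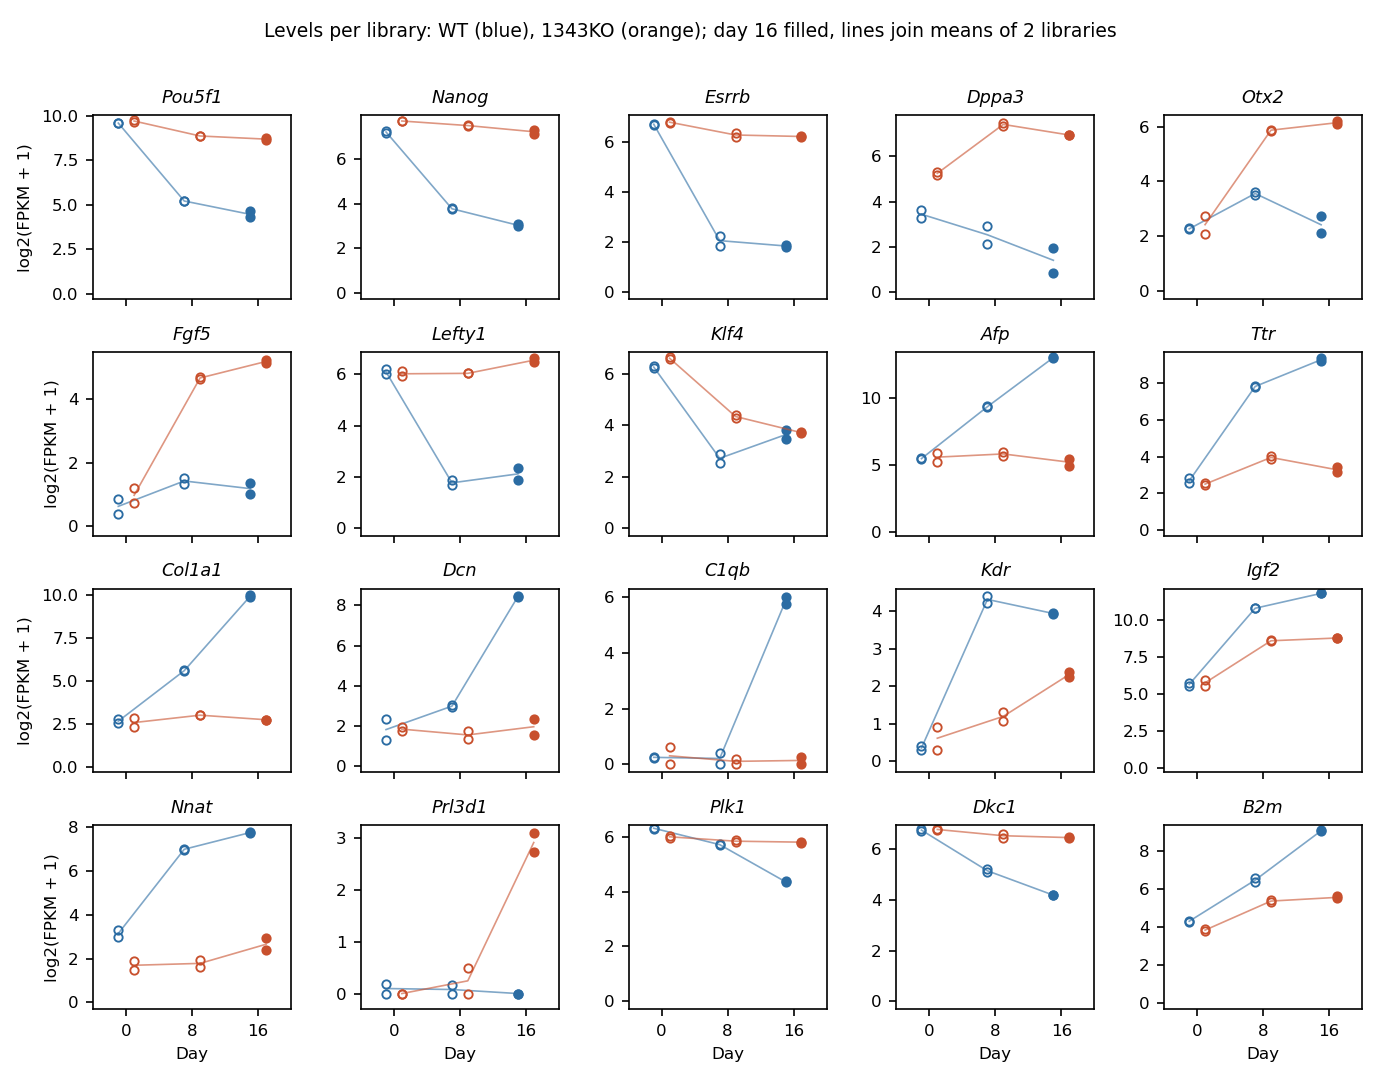
FPKM of 20 genes in each library, as log2(FPKM + 1), at days 0, 8 and 16. WT is drawn slightly to the left and 1343KO slightly to the right of the day, day 16 is filled and lines join the means of 2 libraries. Pou5f1, Nanog and Esrrb fall by day 8 in WT and stay high in 1343KO, Otx2 and Fgf5 climb in 1343KO, and Afp, Col1a1 and C1qb climb in WT by day 16 but not in 1343KO.

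Lists of noncoding RNAs, germ line genes and chromatin regulators had mostly higher members. Of 14 noncoding RNAs listed 10 passed the filter on low values, of which 7 were higher and none lower. Lncenc1, a transcript of naive cells, had 2.68 and 3.21 FPKM in WT and 72.9 and 79.5 FPKM in 1343KO, and Platr10 had 2.23 and 5.67 against 55.2 and 61.8 FPKM. Among germ line and 2-cell-like genes 13 of 18 tested were higher and none lower; 5 of the 23 listed were not tested. Sycp3, a protein of the meiotic chromosome axis, had 0.892 and 1.71 FPKM against 13.8 and 13.8 FPKM, and Ddx4 (Vasa), a germ cell helicase, had 0.229 and 0.333 against 4.25 and 4.05 FPKM. The 2-cell-stage gene Zscan4c did not pass (limma adjusted p = 0.166). Of 19 DNA methylation and chromatin genes 17 were higher and 1 lower, with a median of 1.19. Dnmt3l, the cofactor of de novo methylation, had 4.48 and 2.82 FPKM in WT against 87.9 and 86.8 FPKM. The TET dioxygenases, which oxidise methylcytosine, split: Tet1 rose (3.97 and 4.51 to 38.1 and 42.4 FPKM), Tet2 did not pass (limma adjusted p = 0.352) and Tet3 fell (11.8 and 11.4 to 5.11 and 4.38 FPKM).

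The Lin28 and let-7 axis, which times the passage to later development, was mixed: of 14 tested genes 7 were higher, 4 lower and 3 not passed. Lin28a, the RNA-binding protein that blocks let-7 maturation, had 45.7 and 47.3 FPKM in WT and 133 and 127 FPKM in 1343KO (1.46 ± 0.06). Hmga2, a let-7 target of later progenitors, went the other way, from 70.6 and 69.5 to 44.1 and 42.8 FPKM (-0.68 ± 0.10), as did the terminal uridylyl transferases Tut4 (-0.86 ± 0.18) and Tut7 (-1.21 ± 0.16). The day 0 means of Hmga2 were 7.19 FPKM in WT and 5.54 FPKM in 1343KO, both under the day 16 levels.

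Nodal and FGF pathway lists had more higher than lower members. Of 16 genes of the Nodal pathway 10 were higher and 3 lower (9 and 5 under median-of-ratios scaling). Tdgf1 (Cripto), the Nodal co-receptor, had 12.9 and 12.5 FPKM in WT and 170 and 173 FPKM in 1343KO (3.65 ± 0.06, limma adjusted p = 3.43e-09). The Nodal targets and inhibitors Lefty1 (4.09 and 2.70 against 88.6 and 98.0 FPKM) and Lefty2 (1.24 and 2.14 against 62.3 and 64.1 FPKM) were high in both knockout libraries. Foxh1, the DNA-binding partner of SMAD2 and SMAD3, and Gdf3, a ligand of the same receptors, rose by 3.73 and 3.77, whereas Smad3 itself fell by 0.63 and Smad2 did not pass. Of 18 FGF pathway genes 12 were higher and 4 lower. The ligand Fgf4 rose from 1.71 and 3.30 to 39.3 and 40.2 FPKM, and the feedback inhibitor Spry2 from 10.3 and 10.4 to 34.5 and 36.3 FPKM. The 4 lower genes included the receptors Fgfr2, Fgfr3 and Fgfr4, with log2 differences of -0.74, -2.06 and -1.73.

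Bone morphogenetic protein (BMP) and WNT genes leaned downward. Of 19 tested BMP genes 3 were higher and 13 lower (median -0.75); under median-of-ratios scaling 1 was higher and 13 lower. Bmp4, the ligand that drives mesoderm formation, had 24.4 and 26.6 FPKM in WT against 10.7 and 9.32 FPKM, and its target Id2 had 114 and 110 against 32.0 and 28.7 FPKM. Of 26 tested WNT genes 7 were higher and 14 lower (median -0.77). Dkk2, a secreted WNT modulator, showed the largest difference among those named, from 29.9 and 30.4 FPKM in WT to 0.282 and 1.17 FPKM in 1343KO (-4.22 ± 0.25). Sfrp1, a secreted WNT antagonist (103 and 100 against 28.5 and 26.7 FPKM), and Nkd1, a feedback inhibitor (30.4 and 31.3 against 2.93 and 2.23 FPKM), were also lower. Sfrp1 and Nkd1 lie on chromosome 8, whose median difference was below that of the rest of the genome (values below). The transcriptional effector Tcf7 was higher, with 4.93 and 5.09 against 31.1 and 29.6 FPKM.

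A small group of primitive streak genes, which mark the first mesoderm and endoderm precursors of the gastrula, was detected in 1343KO at day 16. Of 17 listed 10 were tested, and 5 were higher and 1 lower. T (Brachyury) had 0.0813 and 0.235 FPKM in WT and 7.31 and 7.08 FPKM in 1343KO (2.83 ± 0.20, limma adjusted p = 3.38e-06). Eomes had 0.883 and 0.827 against 9.28 and 8.70 FPKM, and Gsc 0.595 and 0.854 against 2.80 and 2.34 FPKM. For these 3 genes the knockout mean was above each WT group mean; T averaged 0.304 FPKM at day 0 and 1.18 FPKM at day 8 in WT. The 1343KO line had 5.30 FPKM of T already at day 8.

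Opposite to these stood the genes of differentiated tissues, the largest of which by level were the plasma proteins of yolk sac endoderm and liver. Afp, the fetal counterpart of serum albumin, had 8246 and 8139 FPKM in WT and 43.1 and 29.5 FPKM in 1343KO. The WT libraries were 226-fold higher by the ratio of means (-7.81 ± 0.21, limma adjusted p = 1.58e-08), and the knockout mean was near its own day 0 mean of 47.8 FPKM. Ttr (transthyretin) had 583 and 647 against 7.92 and 9.71 FPKM, a 69.7-fold ratio, and Apoa1, the main protein of high-density lipoprotein, 970 and 1064 against 12.8 and 11.9 FPKM. The iron carrier Trf (-7.23), the fibrinogen chain Fga (-6.26), the retinol carrier Rbp4 (-5.71) and Igfbp1 (-6.46) belonged to the same group. Of 29 tested genes of the list 28 were lower and none higher (median -4.89), and Apoc1 did not pass (22.7 and 29.4 against 34.3 and 40.3 FPKM, limma adjusted p = 0.0681). Their summed FPKM was 16125 to 16550 in WT and 793 to 828 in 1343KO. In bulk samples, fewer cells of a type and less RNA per cell cannot be told apart, here and for every tissue list below.

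Endoderm transcription factors were lower to a smaller degree: 14 of 19 tested were lower and 1 higher, with a median of -1.22. Hnf4a, which activates many plasma protein genes, had 25.0 and 24.7 FPKM in WT against 1.18 and 2.59 FPKM (-3.21 ± 0.24). Gata4 (26.7 and 28.5 against 11.7 and 13.7 FPKM) and Foxa2 (17.8 and 12.9 against 7.32 and 6.88 FPKM) kept more than a trace in the knockout libraries. Sox17 did not pass (13.2 and 19.4 against 11.6 and 7.02 FPKM, limma adjusted p = 0.19). Basement membrane genes, products of parietal endoderm among other cells, were lower in 14 of 16 cases. Sparc had 1165 and 1161 FPKM against 178 and 172 FPKM (-2.72 ± 0.05), and Col4a1 301 and 302 against 58.2 and 47.9 FPKM. Col4a1 lies on chromosome 8, whose median difference was below that of the rest of the genome (values below), and it already differed at day 0, with 66.3 ± 10.3 (SD, n = 2) FPKM in WT and 12.2 ± 1.87 (SD, n = 2) in 1343KO. The basement membrane list as a whole was also lower at day 0, with a median difference of -0.81. Its summed level was then 589 to 610 FPKM in WT and 306 to 311 FPKM in 1343KO, and 3 of its 16 genes lie on chromosome 8. Endoderm transcription factors summed to 91.9 to 92.9 FPKM in WT and 28.9 to 41.4 FPKM in 1343KO at day 0 (median difference -0.14). Cubn (cubilin), the scavenger receptor of visceral endoderm, had 40.7 and 41.3 against 0.610 and 0.871 FPKM at day 16.

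Most collagen and matrix genes were lower in 1343KO. Col1a1, the main chain of type I collagen, had 937 and 1018 FPKM in WT and 5.81 and 5.76 FPKM in 1343KO, a 169-fold ratio (-7.17 ± 0.15, limma adjusted p = 4.8e-09). Col1a2 had 976 and 1031 against 9.04 and 8.47 FPKM. Of 21 tested collagen genes 17 were lower and none higher (median -4.06), and their summed FPKM was 3347 to 3545 in WT and 135 to 139 in 1343KO. The 4 that did not pass were Col2a1, Col9a3, Col15a1 and Col18a1; Col18a1, a basement membrane collagen, had 61.2 and 70.6 FPKM in WT and 71.1 and 71.6 in 1343KO. Of 39 genes of fibroblast matrix and its remodelling 35 were lower and 1 higher. The small proteoglycan Dcn (decorin) had 353 and 336 against 4.15 and 1.98 FPKM, the crosslinking enzyme Lox 104 and 98.9 against 0.825 and 0.539 FPKM, and Postn (periostin) 298 and 293 against 7.74 and 6.28 FPKM. Fibronectin (Fn1), which ES cells also make, fell less, from 428 and 448 to 102 and 105 FPKM.

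Of 20 genes of the switch between epithelial and mesenchymal states 12 were lower and 3 higher, and mesenchymal genes were among the lower. The mesenchymal filament Vim had 354 and 385 FPKM in WT against 61.8 and 74.7 FPKM (-2.42 ± 0.15), and Snai2 (Slug), a repressor of epithelial genes, had 23.8 and 25.8 against 2.04 and 3.36 FPKM. The epithelial cadherin Cdh1, a gene of chromosome 8 (values below), had 84.1 and 81.0 FPKM in WT and 93.5 and 85.7 in 1343KO. It did not pass (0.12 ± 0.06, limma adjusted p = 0.147). Epcam, an epithelial adhesion molecule also found on ES cells, had 60.6 and 57.7 against 126 and 116 FPKM. Ocln (occludin), a protein of tight junctions, fell from 18.2 and 17.9 to 4.86 and 4.81 FPKM. Simple epithelium genes leaned downward, with 5 higher and 13 lower of 23. Krt18 fell (292 and 309 to 160 and 179 FPKM), whereas Rab25 rose (0.558 and 2.67 to 9.59 and 15.1 FPKM).

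**Figure D3:**
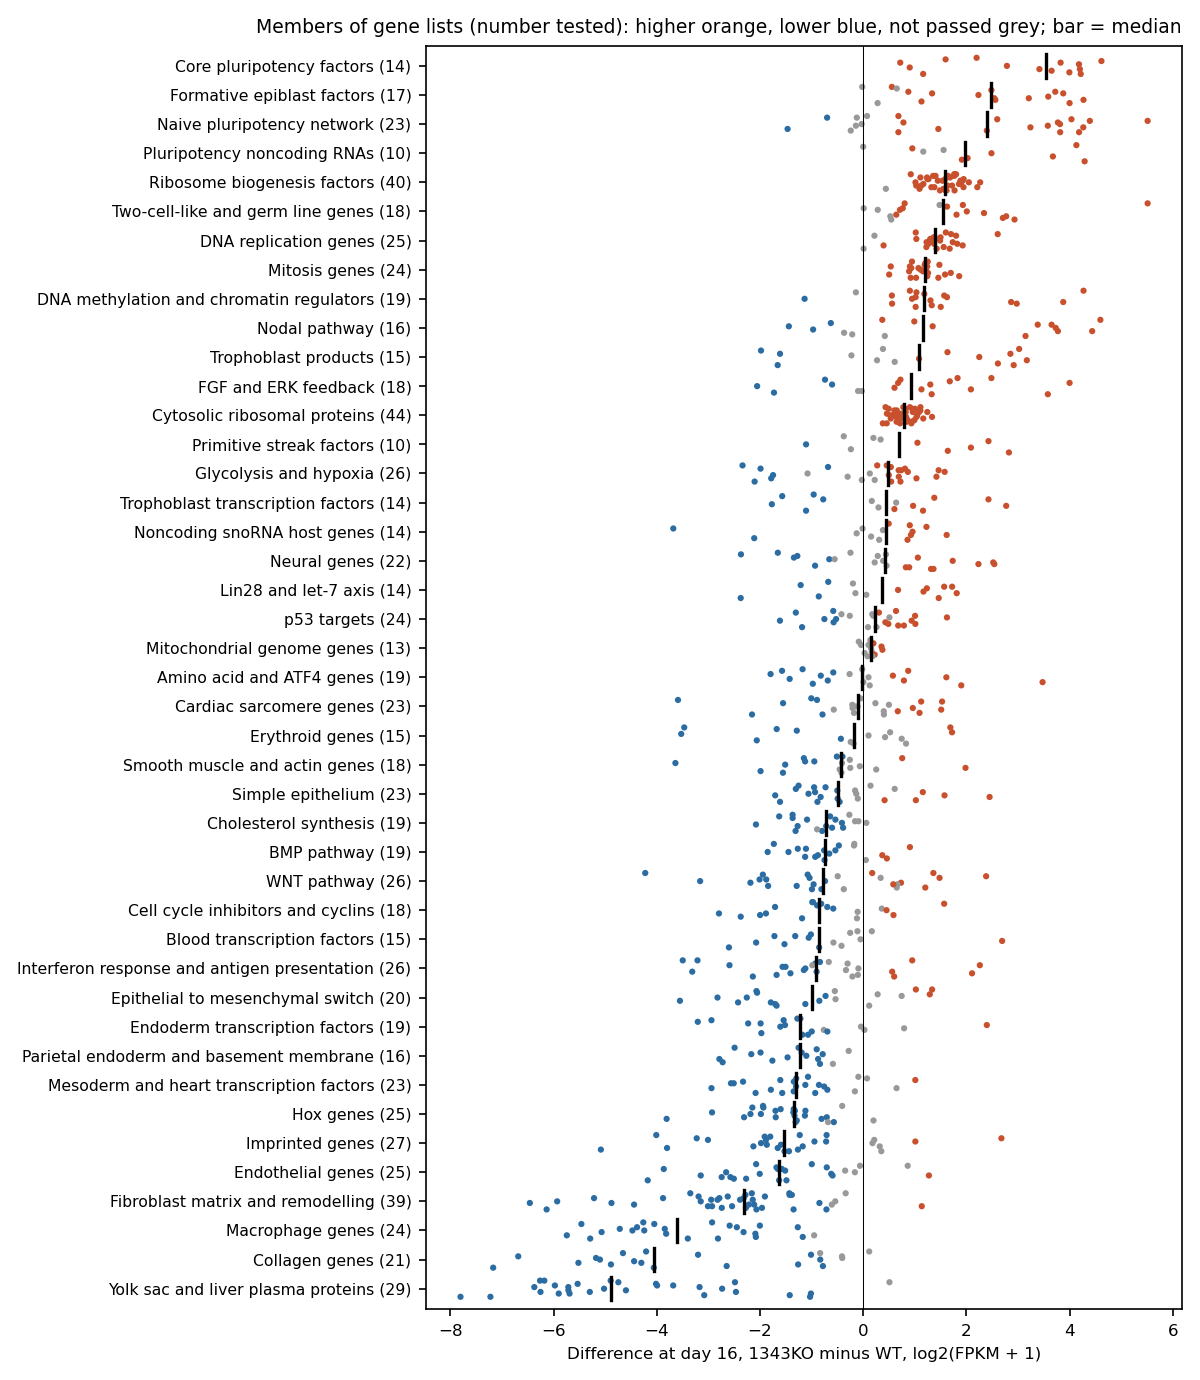
Log2 difference of 1343KO minus WT at day 16 for the tested members of 43 gene lists (dots), with the list median as a bar, ordered by median. Core pluripotency genes stand at the upper end (median 3.53) and yolk sac and liver genes at the lower end (median -4.89), while mitosis, ribosomal and ribosome biogenesis genes sit tightly on the higher side.

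Of 24 macrophage genes 20 were below 1 FPKM in both 1343KO libraries, and none was in both WT libraries. Of the 24 genes 23 were lower and Cd74 did not pass; 9 of the 24 were listed at 0 in both 1343KO libraries. C1qb, a chain of complement C1q, had 63.5 and 52.6 FPKM in WT and 0.202 and 0 FPKM in 1343KO, and C1qc 47.5 and 39.1 FPKM and 0 in both. The mannose receptor Mrc1 had 30.8 and 28.4 against 0.568 and 0.619 FPKM, and the growth factor receptor Csf1r 29.7 and 26.7 against 2.11 and 1.46 FPKM. The summed level of the 24 genes was 456 to 482 FPKM in WT at day 16 and 13.9 to 14.1 FPKM in 1343KO. In WT it had been 29.6 to 32.3 FPKM at day 8, so that most of this signal appeared between day 8 and day 16 in WT.

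Blood and vessel lists differed in how many members were lower. Of 25 endothelial genes 20 were lower and 1 higher (median -1.63). Kdr, the main receptor for vascular endothelial growth factor, had 14.2 and 14.6 FPKM against 3.76 and 4.21 FPKM. Cdh5, the cadherin of endothelial junctions and a gene of chromosome 8 (values below), had 34.9 and 31.4 against 4.07 and 5.46 FPKM. The hyaluronan receptor Lyve1 had 21.3 and 23.4 against 0.286 and 0.295 FPKM. Pecam1, which ES cells carry too, had 24.1 and 25.0 against 24.1 and 22.9 FPKM and did not pass (limma adjusted p = 0.678). Of 15 tested blood transcription factors 8 were lower, 1 was higher and 6 did not pass. The myeloid factor Spi1 had 4.91 and 6.34 FPKM against 0 and 0.176 FPKM, and the exception Myb, a proto-oncogene of blood progenitors, 0.332 and 0.565 against 7.73 and 9 FPKM. Of 15 tested erythroid genes 6 were lower, 2 higher and 7 not passed. Adult-type globin Hba-a1 had 21.9 and 29.8 against 1.98 and 0.925 FPKM, while the embryonic globin Hbb-bh1 had 4.84 and 7.55 against 7.49 and 17.6 FPKM, with overlapping libraries (0.83 ± 0.41, limma adjusted p = 0.122). Hba-a1 and Hba-a2 are nearly identical copies, so their separate values are uncertain.

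Among 23 tested genes of the mesoderm and heart list, mostly transcription factors, 18 were lower and 1 higher (median -1.30). Under median-of-ratios scaling 18 were lower and none higher. Hand1 had 58.9 and 65.7 FPKM in WT against 19 and 21.6 FPKM, Hand2 33.8 and 36.2 against 6.63 and 5.72 FPKM, and Tbx20, a T-box factor of the heart, 15.4 and 13.7 against 2.07 and 1.43 FPKM. Sarcomere genes showed no common direction, with 6 higher, 6 lower and 11 not passed of 23 tested. Under median-of-ratios scaling 4 were higher and 8 lower. Most of the higher calls and some of the lower were lost under at least 1 alternative besides the 2-fold test. Mybpc3, cardiac myosin-binding protein C, had 22.4 and 27.2 against 0.871 and 1.43 FPKM (-3.59 ± 0.21), whereas Actc1, cardiac actin, had 6.23 and 7.85 against 13.8 and 15.4 FPKM (0.96 ± 0.18). Tnnt2 (14.3 and 24 against 12 and 8.89 FPKM) passed in the reported fit (-0.79 ± 0.26, limma adjusted p = 0.0269) but not under several of the alternatives. Smooth muscle genes were lower in 9 of 18 cases and higher in 2; Acta2 had 97.5 and 111 against 34.1 and 35.3 FPKM.

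Hox genes, which mark position along the body axis, were low in 1343KO. Of 38 listed 25 were tested, 22 were lower and none was higher. Of the tested genes 21 were under 1 FPKM in both 1343KO libraries, and 2 in both WT libraries. Hoxc8, a trunk gene, had 19 and 16.4 FPKM against 0.612 and 0.097 FPKM (-3.81 ± 0.21), and Hoxc6 10.8 and 12 against 0.641 and 0.607 FPKM. The 3 that did not pass were Hoxa9, Hoxb6 and Hoxd1. Imprinted genes, many of which control fetal growth, were lower in 21 of 27 tested and higher in 2. Igf2, the fetal growth factor, had 3515 and 3477 FPKM in WT against 434 and 433 FPKM (-3.01 ± 0.11), Nnat 209 and 214 against 6.59 and 4.17 FPKM, and the noncoding RNA Meg3 493 and 522 against 122 and 109 FPKM. Igf2 in 1343KO was nevertheless above its own day 0 mean of 52.9 FPKM. The 2 higher imprinted genes were Snrpn, a splicing protein (7.57 and 10.1 to 59.1 and 64.2 FPKM), and Sfmbt2 (6.08 and 5.74 to 12 and 13.9 FPKM).

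Neural and trophoblast lists held genes of both directions. Of 22 tested neural genes 9 were higher, 6 lower and 7 not passed. Pax6, an early neurectoderm factor, had 1.22 and 1.02 FPKM against 4.88 and 3.72 FPKM (1.32 ± 0.23), and Stmn2, a neuronal growth protein, 2.88 and 2.20 against 20.9 and 17.7 FPKM. The latter was not specific to differentiated cells here, since its day 0 mean was 97.5 FPKM in WT. Ncam1, an adhesion molecule, went from 16.4 and 14.4 to 2.13 and 2.19 FPKM, and Nes did not pass (9.94 and 10.2 against 8.27 and 8.37 FPKM, limma adjusted p = 0.15). Of 15 tested trophoblast products 8 were higher and 3 lower. Prl3d1 (placental lactogen I) was listed at 0 in both WT libraries and had 7.55 and 5.67 FPKM in 1343KO, and Prl2c2 (proliferin) was listed at 0 in both and had 8.21 and 7.83 FPKM. Both are products of trophoblast giant cells, and their highest mean in any other group was 0.203 FPKM for Prl3d1 and 0.28 FPKM for Prl2c2. Prolactin family genes are similar in sequence, so the split between them is uncertain. Trophoblast transcription factors were divided, 6 higher and 5 lower of 14 tested; Tfap2c, shared with germ cells and ES cells, rose (3.40 and 4.91 to 34.6 and 33.1 FPKM), and Ets2 fell (43.0 and 42.2 to 11.9 and 11.7 FPKM).

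Mitosis and replication lists were higher. All 24 mitosis genes were higher (median 1.20); under median-of-ratios scaling 22 were. Plk1, a kinase of mitotic entry, had 19.4 and 20.01 FPKM in WT and 55.1 and 56.6 FPKM in 1343KO (1.46 ± 0.07), and Bub1, of the spindle checkpoint, 13.7 and 14.3 against 57.2 and 49.9 FPKM. Of 25 tested DNA replication genes 23 were higher and none lower: Mcm10, which starts replication forks, had 4.90 and 3.96 against 34.6 and 29.6 FPKM. Genes of the list of cell cycle inhibitors and cyclins were lower in 12 of 18 cases and higher in 3. Cdkn1c (p57) had 226 and 246 against 66.1 and 60.3 FPKM, Cdkn1a (p21) 85.1 and 82.3 against 32.1 and 40.9 FPKM, and cyclin D2 (Ccnd2) 62.8 and 67.2 against 11.7 and 11.8 FPKM. Targets of p53 showed no common direction (10 higher, 7 lower, 7 not passed of 24). Bax had 53.2 and 65.1 against 126 and 114 FPKM, Fas 2.66 and 2.66 against 0.269 and 0.128 FPKM, and Mdm2 did not pass (limma adjusted p = 0.0857).

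Ribosome biogenesis, the process in which H/ACA small nucleolar RNAs act, was higher in 39 of 40 genes, and none was lower (median 1.59). Dkc1, which encodes dyskerin, the pseudouridine synthase of H/ACA particles, had 17.2 and 17.3 FPKM in WT and 88.6 and 85.3 FPKM in 1343KO, a 5.04-fold ratio (2.27 ± 0.08, limma adjusted p = 5.2e-08). Nucleolin (Ncl) had 160 and 162 against 453 and 456 FPKM, Nolc1, a nucleolar chaperone of these particles, 19 and 20.6 against 74.4 and 78.4 FPKM, and Rrn3, an initiation factor of RNA polymerase I, 14.8 and 15.6 against 58.8 and 56.6 FPKM. These were not levels beyond those of undifferentiated cells: Dkc1 averaged 107 FPKM in WT and 109 FPKM in 1343KO at day 0. All 44 tested cytosolic ribosomal protein genes were higher as well, with a smaller median of 0.80; Rps2 had 943 and 986 against 2180 and 2145 FPKM. Many of these genes have processed pseudogenes, so their FPKM carry an uncertain share of shared reads. Mycn, a growth regulator of ES cells, had 19 and 21.8 against 66.4 and 58.8 FPKM.

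Noncoding hosts of small nucleolar RNAs had no common direction. With Snhg3 counted, 7 of 14 tested were higher, 2 lower and 5 not passed. Gas5, the most abundant of them, had 197 and 197 FPKM in WT and 167 and 196 FPKM in 1343KO (limma adjusted p = 0.293). Dancr had 6.23 and 5.50 against 23.5 and 17.1 FPKM, and Snhg18 was the second to fall (9.90 and 7.65 to 0.808 and 1.79 FPKM).

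Metabolic lists held genes of both directions. Of 26 genes of glycolysis and hypoxia 15 were higher and 6 lower. Enzymes such as Pkm (427 and 457 against 1149 and 1220 FPKM) and Eno1 (310 and 335 against 864 and 915 FPKM) were higher. Other hypoxia targets differed in direction: Pdk1, a kinase that restrains pyruvate oxidation, rose (29.6 and 28.6 to 87.2 and 90.8 FPKM), Egln3 did not pass (20.2 and 22.3 against 25.1 and 24.8 FPKM), and the lower genes included Vegfa (83.0 and 90.7 against 25.2 and 23.9 FPKM), Adm (8.03 and 12 against 1.17 and 1.11 FPKM) and Ndrg1 (54.6 and 55.4 against 12.4 and 11.7 FPKM). Cholesterol synthesis genes were lower in 14 of 19 tested and higher in none; Insig1 fell from 116 and 114 to 37.2 and 35.9 FPKM and Sc5d from 51.9 and 48.8 to 10.7 and 11.6 FPKM. The regulator Srebf2 did not pass (50.5 and 51.7 against 51.7 and 55.1 FPKM). Tdh, the threonine dehydrogenase on which mouse ES cells depend, had 4.68 and 7.09 against 73.7 and 75.3 FPKM. Genes of amino acid supply under ATF4 were mixed (6 higher, 8 lower of 19 tested): Asns rose from 14.2 and 16.7 to 58.5 and 62.1 FPKM, Atf5 fell from 28.7 and 27.8 to 7.27 and 7.59 FPKM, and Atf4 itself did not pass (limma adjusted p = 0.0851). Of the 13 genes of the mitochondrial genome 4 were higher, with a median of 0.15, and under median-of-ratios scaling none was higher and 1 was lower.

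Interferon and antigen presentation genes were lower in 14 of 26 cases and higher in 5. B2m, the light chain of class I molecules, had 544 and 525 FPKM in WT against 44.6 and 48.3 FPKM (-3.50 ± 0.09), and the interferon-induced Ifit3 11.2 and 11.5 against 0.553 and 0 FPKM. The exceptions included Ifitm1, a membrane protein also expressed by pluripotent and germ cells, with 81.6 and 86.0 against 423 and 389 FPKM, and Irf1, with 6.69 and 8.28 against 36.7 and 34.3 FPKM. The summed level of the list was 1403 to 1421 FPKM in WT and 1180 to 1211 FPKM in 1343KO. This sum joins abundant genes that moved in opposite directions, such as B2m and Ifitm1. Of the 26 genes 5 were below 1 FPKM in both 1343KO libraries, and none was in both WT libraries. The macrophage list summed to 456 to 482 FPKM in WT and 13.9 to 14.1 FPKM in 1343KO, with 9 of 24 members at 0 in both knockout libraries. The part of macrophages in the lower interferon genes was not tested.

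Features of the clone itself bear on the comparison. Y-linked genes were near 0 in 1343KO: Eif2s3y had 24 and 17.6 FPKM in WT and 0.52 and 0.198 FPKM in 1343KO, Ddx3y 9.19 and 7.31 against 0.650 and 0.558 FPKM, and Uty 2.98 and 3.80 against 0.268 and 0.064 FPKM. The same was seen at day 0, where Eif2s3y averaged 15.2 FPKM in WT and 0.858 FPKM in 1343KO. Restricted to genes averaging 20 FPKM or more, the median difference on chromosome 8 was -0.35 relative to the rest of the genome. The other 19 chromosomes lay between -0.22 and 0.12. Of its 214 genes 36.0% were called higher and 32.2% lower. In this abundant set the other chromosomes had 42.2% to 58.7% higher and 13.8% to 31.8% lower, so the shares of all tested genes are not its background. Chromosome X was the closest to it (42.2% higher, 31.8% lower, median -0.22). With genes of chromosomes 8 and Y left out, and those of X kept, 4490 genes were higher and 3674 lower. With a single clone, effects of the knockout and of such differences between the lines cannot be told apart.

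The timing of the day 16 difference was read from the difference between line effects, the 1343KO minus WT difference at day 16 less that at an earlier day; these comparisons use the same day 16 libraries. Against day 0, 6512 genes (40%) passed, 3540 (21.7%) with a more positive and 2972 (18.2%) with a more negative effect at day 16. All 14 core pluripotency genes had a more positive effect at day 16, and their median difference between lines at day 0 was 0.11. Of the 29 yolk sac and liver genes 26 had a more negative effect and none a more positive one, as did 23 of 24 macrophage genes and 18 of 21 collagen genes. Ribosome biogenesis (39 of 40) and ribosomal protein genes (43 of 44) had a more positive effect. Pou5f1, for example, had 762 and 761 FPKM in WT and 851 and 801 FPKM in 1343KO at day 0, and the effect at day 16 was larger by 4.10 (limma adjusted p = 1.58e-07).

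Against day 8, fewer genes passed, 2720 (16.7%), of which 1384 (8.5%) had a more positive and 1336 (8.2%) a more negative effect at day 16. For the core pluripotency list the median difference was 3.11 at day 8 and 3.53 at day 16, and 8 of 14 effects were more positive at the later day. For the naive list it was 2.80 at day 8 and 2.40 at day 16, with 2 effects more positive and 4 more negative. Klf4 was one of the latter: at day 8 its means were 5.63 FPKM in WT and 19.3 FPKM in 1343KO, and at day 16 the lines overlapped (difference of effects -1.55, limma adjusted p = 0.0012).

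Several tissue lists had more negative effects at day 16 than at day 8. Of the macrophage list 23 of 24 effects were more negative than at day 8, when the median difference was -0.09, and so were 17 of 29 for yolk sac and liver, 13 of 21 for collagens and 24 of 39 for fibroblast matrix. Col1a1 shows the course: WT averaged 5.42, 47.9 and 978 FPKM at days 0, 8 and 16, and 1343KO 5.14, 7.15 and 5.78 FPKM. The interferon list had 16 more negative effects and none more positive. Kng1, the kininogen precursor made in liver, had WT means of 0.42 FPKM at day 8 and 82.5 FPKM at day 16, and 1343KO means of 0.705 and 0.788 FPKM.

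More positive effects included those of genes that were high in WT at day 8. Hbb-bh1 averaged 802 ± 59.9 (SD, n = 2) FPKM in WT at day 8 and 2.23 ± 1.44 (SD, n = 2) in 1343KO, whereas at day 16 both lines were low. The erythroid list as a whole had a median difference of -2.45 at day 8 and -0.19 at day 16, with 8 of 15 effects more positive and none more negative. BMP genes followed, from -2.02 to -0.75 with 10 of 19 more positive, and blood transcription factors from -1.85 to -0.85 with 6 of 15. For mitosis genes the median difference was 0.12 at day 8 and 1.20 at day 16, with 23 of 24 effects more positive, and Plk1 went from 52.4 to 19.7 FPKM in WT while it stayed at 57.2 and 55.8 FPKM in 1343KO. Replication (16 of 25), ribosome biogenesis (24 of 40) and ribosomal protein genes (23 of 44) also had more positive effects at day 16, with none more negative in these 3 lists.

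**Figure D4:**
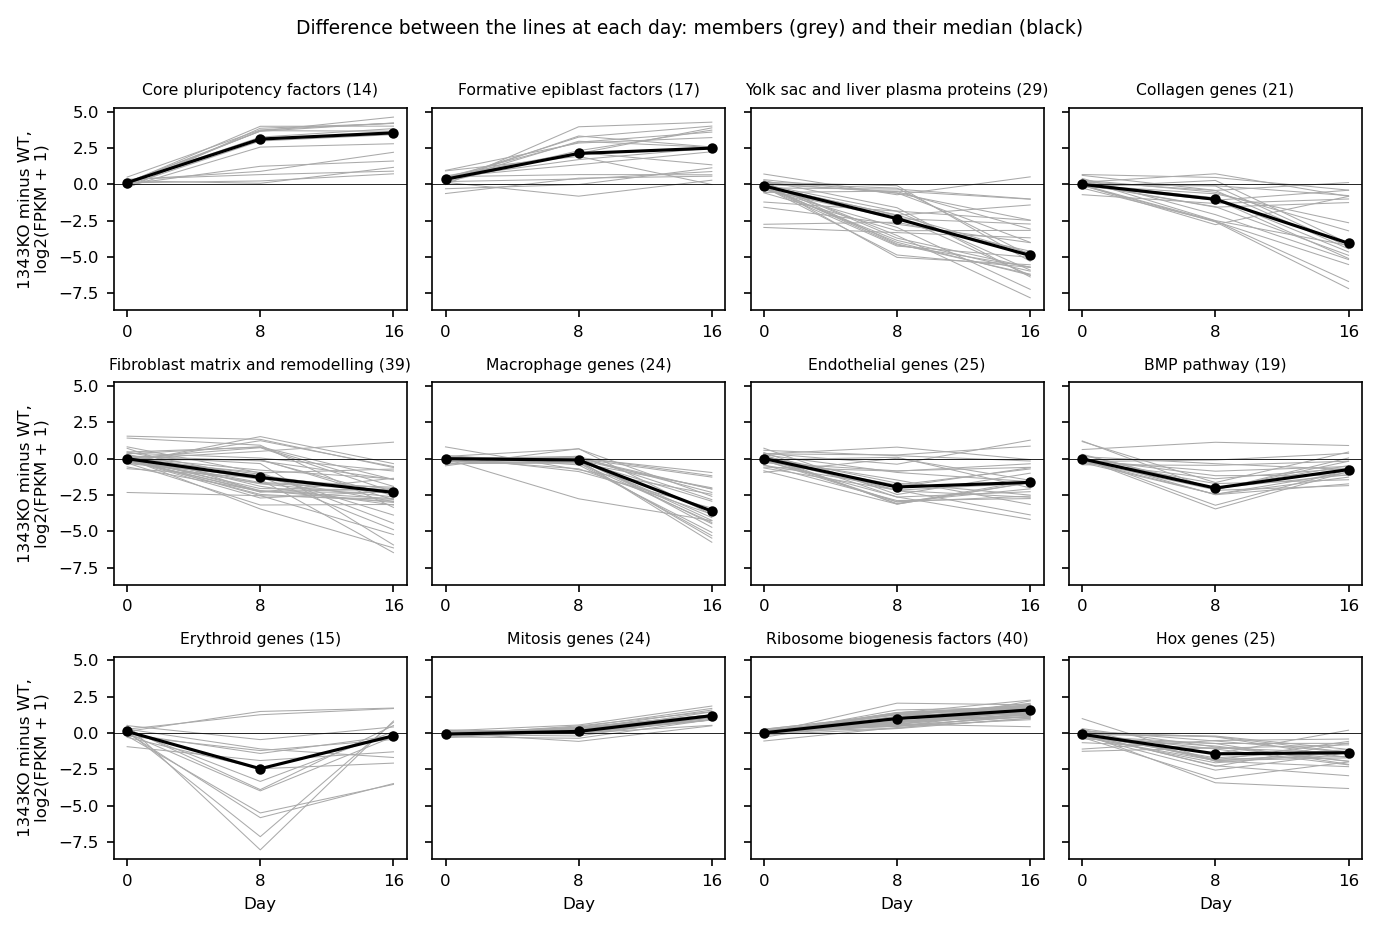
Log2 difference of 1343KO minus WT at days 0, 8 and 16 for 12 gene lists; grey lines are the tested members and the black line their median. Core pluripotency genes are near 0 at day 0 and above 3 from day 8, macrophage genes have a median of -0.09 at day 8 and -3.61 at day 16, erythroid genes dip at day 8, and mitosis genes stand clear of 0 at day 16 (median 1.20).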

How the data were processed

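Poly(A) RNA libraries (NEBNext Ultra II, Illumina, per the labels' protocols) of 6 groups, 2 libraries each, were used: WT and 1343KO at days 0, 8 and 16. The deposited values are FPKM, estimated by the authors with Cufflinks 2.1.1 on GRCm38 (mm10), per the submitters' processing notes; what aligned and filtered the reads, and against which annotation, is not given in the sources used here. Against GENCODE M21, IDs matched for 99.9% of entries and coordinates for 98.7%. A listed 0 can be a failed estimate: of 6620 genes whose median reached 10 FPKM, 17 have an exact 0 somewhere. Depth was estimated from the value of 1 fragment in low genes of transcripts of at least 1500 nucleotides with an assumed fragment of 200; 87.6% to 91.0% of values were then whole within 5%. No count model was used.

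Genes reaching 1 FPKM in 2 or more libraries (16289 of 54537) were fitted on log2(FPKM + 1) with limma 3.58.1 (R 4.3.3; moderated test with a mean-variance trend, 6 residual degrees of freedom), two-sided, with Benjamini-Hochberg adjustment over all tested genes and a threshold of 0.05. The added 1 makes log2 differences of low genes too small; folds are ratios of mean FPKM. The contrasts were 1343KO minus WT at day 16, and that difference minus the one at day 8 or day 0. The method was tested on simulated data. Python 3.11.15 served for tables (numpy 2.4.6, pandas 2.3.3) and for plots (matplotlib 3.10.9). A total of 22 alternatives were run, 12 of which left out 1 library.

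The comparison and the 44 gene lists (986 entries, 972 in the table, 912 tested, 860 distinct genes) were chosen with earlier results of these data known, so list counts and medians are descriptions. Genes named are the locus genes and 24 fixed markers, whatever their p; the 15 largest calls without overlap in each direction (unnamed models, small RNAs, pseudogenes and Y-linked genes left out); from each list up to 5 calls per direction with the smallest p, members against the majority and up to 2 abundant members that did not pass; and the 5 largest differences between line effects in each direction. Promoters are RefSeq sequences and small nucleolar RNAs GENCODE transcripts. Some genes that these rules name are not reported here.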

Additional observations from a re-analysis of the deposited data

Results flagged for a closer look

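The effect of the line differed between days for many genes by the test of that difference. Against day 8, 1384 genes had a more positive and 1336 a more negative effect at day 16, and against day 0, 3540 and 2972.

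The more positive effects against day 8 that are named here belong to genes that were high in WT at day 8. The embryonic globin Hba-x had a difference of effects of 7.87, with 257 and 290 FPKM in WT and 1.18 and 0.774 FPKM in 1343KO at day 8. Cfc1 (Cryptic), a Nodal co-receptor, had a difference of 5.18, the pericyte gene Rgs5 of 4 and Ms4a4d of 3.66. At day 8 Cfc1 had 20.7 and 25.3 FPKM in WT against 2.53 and 2.37 FPKM in 1343KO, and Rgs5 18.5 and 19.6 against 1.78 and 1.45 FPKM.

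The largest more negative effects against day 8 were those of Arhgef4 (-7.69), Kng1 (-5.82), C1qb (-5.64), Lox (-5.59) and C1qc (-5.31). The value for Arhgef4 involves 2 knockout libraries of day 8 that differed widely, at 52.5 and 0.814 FPKM, so its size depends on the first of them. At day 16 Arhgef4 had 78.1 and 68.8 FPKM in WT against 1.16 and 1.6 FPKM.

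Against day 0, the most positive differences were those of Trh (5.39), Lefty2 (4.88), Lefty1 (4.51), Dppa4 (4.47) and Utf1 (4.45), and the most negative those of Afp (-7.91), Spp2 (-7.85), Col1a1 (-7.09), Tff3 (-6.91) and Trf (-6.89).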

How the results depend on the processing

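At day 16 the alternatives other than a stricter requirement on size or level kept both counts within 1.5 times of 4639 higher and 3931 lower. Testing for a change beyond 2-fold left 732 higher and 976 lower. A minimum mean level of 5 FPKM left 2305 lower, 701 with a more negative effect than at day 8 and 1754 with a more negative effect than at day 0; that setting tests fewer genes. Leaving out 1 library at a time gave 3882 to 4609 higher and 3355 to 3960 lower genes. For the differences against day 8 it gave 889 to 1337 more positive and 947 to 1305 more negative effects; the count of more positive effects fell from 1384 to 889 without 1343KO day 8 replicate 2 and to 916 without WT day 8 replicate 2, and the cause was not tested. Against day 0 it gave 3034 to 3517 and 2517 to 2939. With 1 library left in a group, that library is assumed to vary like the others.

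Of 396 named genes 319 were called, and 294 kept the call under every alternative but the 2-fold test; the other 25 lost it under at least 1, Tnnt2 and Cdx2 among them. Ctnnb1 (0.18 ± 0.06) changed sign to -0.015 under median-of-ratios scaling, which differs in how libraries are scaled. Replicates of the 2 lines share a number but did not deviate together (correlations across genes of 0.029, 0.018 and 0.031 at days 0, 8 and 16). The fit with the replicate number as a block called 4605 higher and 3917 lower. Depth limits what can be said of genes under about 1 FPKM.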

Other observations

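Gene families picked by symbol after values were seen add to the picture of day 16 and are given as counts. Nucleoporins, which line the nuclear pore, were higher in 18 of 18 tested genes (median log2 difference 1.07), and the 6 chaperonin subunits named Cct all were (median 1.13). Proteasome genes were higher in 32 of 38 (median 0.64), mitochondrial ribosomal proteins in 49 of 78 (median 0.66), nuclear ribonucleoproteins (Hnrnp) in 16 of 20 and Srsf splicing factors in 8 of 11, with none lower in these 4 families. Under median-of-ratios scaling 2 proteasome genes and 1 mitochondrial ribosomal protein gene were lower. The background was 28.5% of tested genes higher and 24.1% lower.

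Families of the cell surface, the lysosome and the extracellular space leaned the other way. Integrins were lower in 14 of 20 genes (median -0.92), Adamts proteases in 13 of 18 (median -1.01), protocadherins in 16 of 26, galectins in 5 of 7 and subunits of the vacuolar proton pump in 10 of 18. Cathepsins, the lysosomal proteases, were lower in 10 of 13 (median -1.77), and the most positive differences among them were those of Ctsj and Ctsq, which belong to the placental cathepsins. Prolactin family genes, expressed in rodent placenta, were higher in 10 of 12 tested, with a median of 2.68 at day 16 and 0.49 at day 8.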
